A study of Mus musculus with 12 samples.

Results

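The interferon-inducible GTPases described here are 10 mouse genes chosen by name: the guanylate-binding proteins Gbp2, Gbp3 and Gbp7, the immunity-related GTPases Irgm1, Irgm2, Igtp, Iigp1 and Ifi47, and the Mx proteins Mx1 and Mx2. They are 10 of the 18193 genes for which the array carried a probe set annotated to a single gene. They were measured by 13 probe sets, because Gbp2, Gbp7 and Iigp1 had a pair of probe sets each, and no further probe set named a member together with another gene.

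Interferons induce these GTPases in myeloid cells, where they act in cell-autonomous defence, the killing of microbes inside the infected cell itself. Guanylate-binding proteins assemble on pathogen vacuoles and on bacteria in the cytosol and help to trigger inflammasomes. Immunity-related GTPases divide into effectors that load onto and break up pathogen vacuoles (Iigp1, Ifi47) and regulators that sit on the cell's own membranes and hold the effectors in check (Irgm1, Irgm2, Igtp). Mx proteins are dynamin-like GTPases that block viral replication, but most inbred mouse strains, C57BL/6 included, carry defective alleles, and RefSeq lists both Mx1 and Mx2 of the reference mouse as transcribed pseudogenes.

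Dendritic cells (DC) were grown for 6 days in GM-CSF from C57BL/6 marrow and sampled before poly(I:C), which mimics the double-stranded RNA of viruses, and at 5 times after it, namely 1, 3, 6, 12 and 24 h. There were 12 arrays, 2 per time: 1 in experiment 1 and 1 in experiment 2. Each experiment used the marrow of 1 mouse and cells selected for CD11c, so n = 2 mice at every time. The labels give 10 ng/ml GM-CSF, 2.5 μg/ml poly(I:C) and an age of 8 to 10 weeks in 1 field and 3 to 4 months in another, and the study's methods give higher concentrations. No array after 0 h held cells kept without poly(I:C), so poly(I:C) and time in culture cannot be told apart.

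Values are MAS5.0 signal intensities on a linear scale, with every array scaled to a trimmed mean of 500. The median signal of an array lay between 70.9 and 91.4. Itgax, which encodes CD11c, read 16176 to 24684 and Cd74, the invariant chain of MHC class II, 23216 to 34854 over the 12 arrays, and Flt3, a receptor of other DC, read 9.32 to 89.9. Markers of macrophages were also bright (Csf1r 22071 to 32347, and a summed signal of 4 markers of 26452 to 38471), and these genes do not separate the DC of such cultures from macrophages. The sum of these 4 markers was 38471 and 34802 at 12 h in experiments 1 and 2, against 26452 and 30045 at 0 h. Among the 4, Mertk read 6953 and 4440 at 12 h, against 1314 and 1143 at 0 h, while Adgre1 read 2062 and 2860 at 12 h, against 2573 and 3406 at 0 h, and Marco 41.9 and 253 at 12 h, against 71.8 and 400.4 at 0 h. The sum of 9 DC markers was 140330 and 144087 at 12 h, against 111065 and 96357 at 0 h. Among the 9, Ccr7 read 7854 and 625 at 12 h, against 272 and 149 at 0 h. Cd83 read 3415 and 794 at 12 h, against 451 and 263 at 0 h, and Zbtb46 318 and 321, against 415 and 247. Neutrophil markers summed to 1737 to 3739 over 7 genes, nearly all of it S100a8 (1509 to 3401), and at 24 h the sum was 1737 in experiment 1 and 3739 in experiment 2. The part of these marker genes in the changes below was not tested. The summed signal of 3 T-cell markers was 21.3 to 102, with all 3 below the median on every array, that of 4 NK-cell markers 117 to 265, and those of B-cell, mast-cell and red-cell markers 60.0 to 266. In bulk RNA of this kind, fewer cells that express a gene and less RNA per cell cannot be told apart.

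Interferons act on this family through short promoter elements: the interferon-stimulated response element (ISRE), bound by a complex that holds Stat2 and Irf9, and the gamma-activated site (GAS). RefSeq promoter windows of the build GRCm38.p6, each of 250 bases before and 50 bases after a transcript start, were matched to 7 of the 10 genes (8 windows, 2 of them for Gbp3). Iigp1, Mx1 and Mx2 were not matched. The windows were searched on both strands for GAAA followed by any 2 bases and a second GAAA, called ISRE-like here, and for TTCNNNGAA (N, any base), called GAS-like, which is its own reverse complement. An ISRE-like match was present in 6 of the 7 genes, against 3.99% of all 27025 genes with a window. A GAS-like match was present in 3 of the 7, against 9.55% of all genes. The stretches that hold these matches are printed because they are the sequence feature that most of the family shares. Each is written 5′ to 3′ on the gene's strand, with the matches in capitals; no ISRE-like match overlapped a GAS-like one.
Gbp2, chr3:142620574-142620643, plus strand: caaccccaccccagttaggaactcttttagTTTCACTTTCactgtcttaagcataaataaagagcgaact
Gbp3, chr3:142559969-142560043, plus strand: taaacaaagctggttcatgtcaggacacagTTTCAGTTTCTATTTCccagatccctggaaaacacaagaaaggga
Gbp7, chr3:142530200-142530322, plus strand: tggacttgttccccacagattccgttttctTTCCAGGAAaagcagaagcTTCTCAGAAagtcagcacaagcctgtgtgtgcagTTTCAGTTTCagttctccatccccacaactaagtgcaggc
Igtp, chr11:58199481-58199555, plus strand: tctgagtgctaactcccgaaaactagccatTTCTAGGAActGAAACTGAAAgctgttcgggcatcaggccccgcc
Irgm1, chr11:48871421-48871480, minus strand: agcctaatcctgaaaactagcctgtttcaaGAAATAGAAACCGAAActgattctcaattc
Irgm2, chr11:58214872-58214952, plus strand: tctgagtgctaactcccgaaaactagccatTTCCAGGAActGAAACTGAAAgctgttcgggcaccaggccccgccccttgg

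All ISRE-like matches began within 64 bases of the annotated start. In Gbp3 and Irgm1 a pair of them overlapped, so that the capitals form 1 longer block. The other Gbp3 window and the Ifi47 window held neither sequence. Igtp and Irgm2, which neighbour each other on chromosome 11, had 73 of 75 bases in common over the compared stretch, with a GAS-like and an ISRE-like match 2 bases apart in both. Gbp7 held 2 GAS-like matches upstream of its ISRE-like match. A match describes the letters only and is not a measured binding site.

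**Figure D1:**
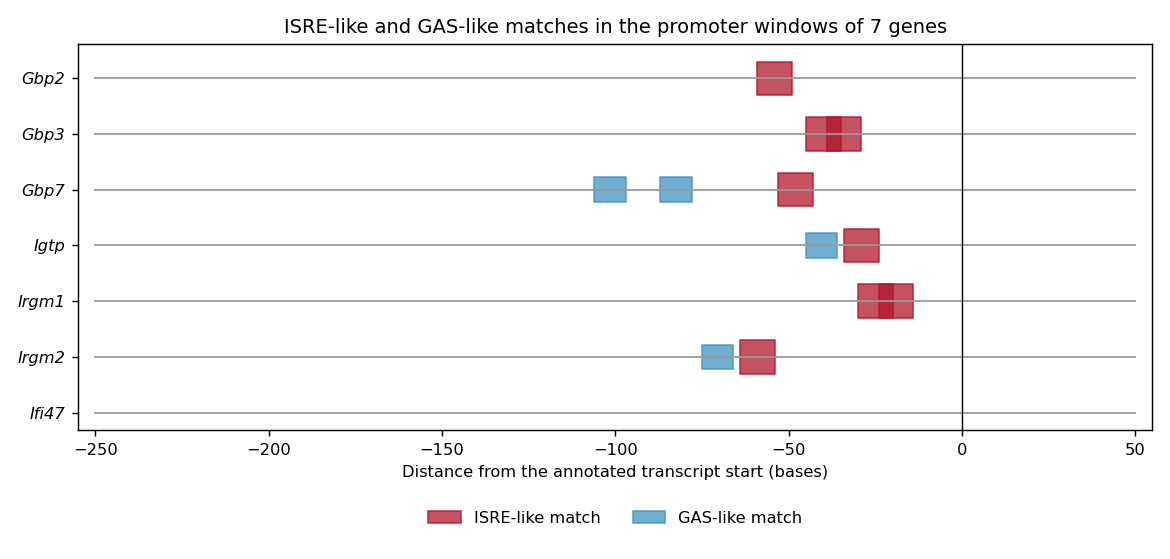
Position of each ISRE-like (red) and GAS-like (blue) match in the promoter windows of 7 genes, as the distance in bases from the annotated start (vertical line); for Gbp3 the window that holds matches is drawn. All matches lie in the 106 bases before the start, and the Ifi47 window is empty.

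All 13 probe sets were low at 0 and 1 h relative to their later values and higher at 3, 6, 12 and 24 h than at 0 h. For every probe set the arrays at each of those 4 times lay above both 0 h arrays. The share of all probe sets separated in this way was not counted, so this describes the 13 only. Changes were tested with limma on log2(signal + 16), with the experiment as a block and Benjamini-Hochberg adjustment over 22519 probe sets, and a probe set was called when its adjusted p was under 0.05. Because 16 was added, fitted changes of dim probe sets are smaller than the ratios of their signals, and their size depends on the constant. At 1 h none of the 13 was called higher, against 0.0533% of all probe sets tested, and 1 of the 13 had an unadjusted limma p under 0.05 in either direction. Of all 22519 tested, 266 were higher and 173 lower at that unadjusted threshold. At 3 h all 13 were called higher, against 1.01% of all tested. The same 13 were called at 6 h (3.62% of all tested), 12 h (9.32%) and 24 h (9.23%). Mx2 and Iigp1 1419042_at had 0 h signals below the filter on mean signal (78.4) and passed it only through their later arrays. With no filter on low signals the count was also 13 at each of these 4 times. The median log2 change of the 13 was 3.06 at 3 h, 3.75 at 6 h, 4.45 at 12 h and 3.95 at 24 h, where the medians of all tested probe sets were -0.06, -0.16, -0.23 and -0.19. The 4 comparisons share the 0 h arrays. The count at 3 h fell to 8 when the 3 h array of experiment 1 was left out, and to 8 when the replicate block was dropped, while it stayed at 13 for 6, 12 and 24 h in both cases.

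**Figure D2:**
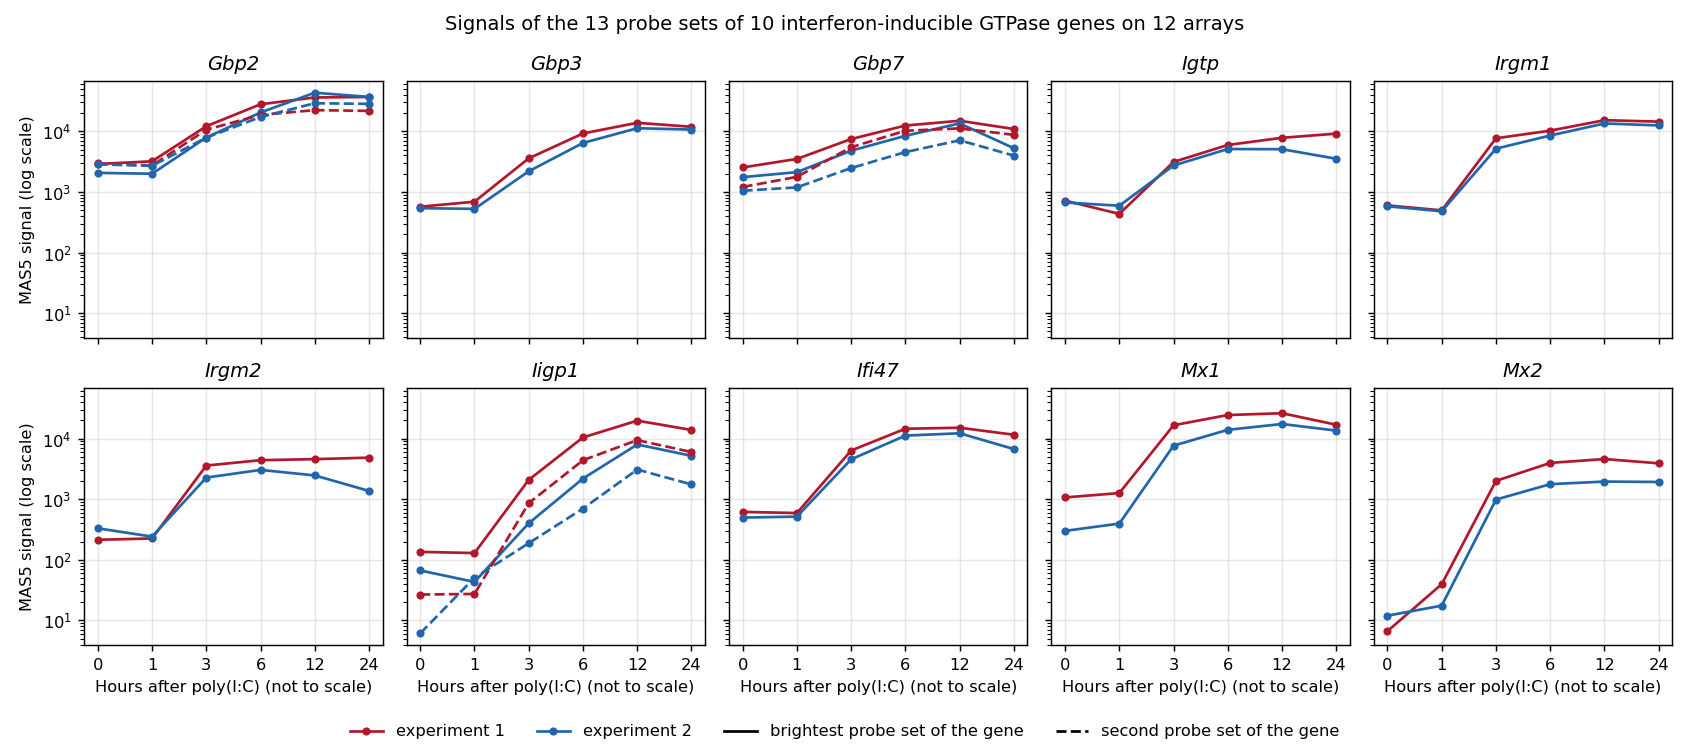
MAS5 signal (log axis) of the 13 probe sets at 6 times (axis not to scale) in experiment 1 (red) and experiment 2 (blue); dashed lines are the second probe set of a gene, and each point is 1 array. From 3 h on every point lies above both 0 h points of its probe set, and Mx2 starts at 6.65 and 12.0.

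Gbp2, a guanylate-binding protein that coats vacuoles and cytosolic bacteria, was followed by its brighter probe set 1418240_at. In experiment 1 its signal was 2887 at 0 h, 3204 at 1 h, 12130 at 3 h, 27946 at 6 h, 36170 at 12 h and 36870 at 24 h. In experiment 2 it was 2064, 1997, 7893, 20460, 43336 and 36886 at the same times. Both experiments climbed until 12 h and stayed near that level at 24 h. The log2 change against 0 h was 4.01 ± 0.22 (SE) at 12 h, a 16.1-fold increase (limma adjusted p = 1.48e-06), and 3.91 at 24 h. The second probe set of Gbp2, 1435906_x_at, whose suffix marks probes that can also match other transcripts, rose less, by 3.13 ± 0.20 at 12 h. The pair had a Pearson correlation of 0.992 over the 12 arrays.

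Gbp3, a close relative of Gbp2 whose gene lies in the same cluster on chromosome 3, gave 571, 691, 3585, 9218, 13818 and 11877 in experiment 1, in order of time. Its values in experiment 2 were 540, 526, 2193, 6426, 11248 and 10699. Both experiments peaked at 12 h, and at 24 h they differed 1.11-fold. Against 0 h the 12 h level was up by 4.45 ± 0.18 on the log2 scale, or 21.8-fold (limma adjusted p = 2.28e-07).

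Gbp7, the neighbour of Gbp3, is a guanylate-binding protein linked to delivery of the phagocyte oxidase to bacterial vacuoles. Its brighter probe set 1434380_at read 2535, 3506, 7461, 12453, 14929 and 10920 in experiment 1 and 1755, 2124, 4789, 8431, 13495 and 5260 in experiment 2. It had the smallest change of the family, 2.74 ± 0.19 at 12 h (6.69-fold, limma adjusted p = 8.38e-06), and 1.84 ± 0.19 at 24 h. The second probe set, 1425156_at, changed by 2.97 at 12 h and 2.37 at 24 h.

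Irgm1, the regulator whose loss in mice impairs resistance to mycobacteria and other intracellular microbes, was at 600, 497, 7676, 10261, 15266 and 14448 in experiment 1 over the 6 times. In experiment 2 it was at 581, 480, 5176, 8533, 13481 and 12508. The experiments were between 1.03-fold and 1.48-fold apart, and the standard error of 0.17 was among the smallest of the family. Its log2 change was 3.38 at 3 h and 4.57 at 12 h, or 23.7-fold (limma adjusted p = 2.21e-07), and 4.47 at 24 h.

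Irgm2, a second regulator, read 214, 225, 3580, 4390, 4567 and 4832 in experiment 1, and 330, 241, 2267, 3036, 2459 and 1364 in experiment 2. It reached most of its increase by 3 h in both experiments, and then stayed high in experiment 1 and declined after 6 h in experiment 2. On the log2 scale the fitted change was 3.34 ± 0.44 at 3 h and 3.58 ± 0.44 at 12 h, or 11.9-fold (limma adjusted p = 0.00032). Without the 0 h array of experiment 1 these changes were 2.67 at 3 h and 2.90 at 12 h, and without that of experiment 2 they were 4.02 and 4.25. At 24 h the change was 3.20, and 2.43 when the 24 h array of experiment 1 was left out or 3.97 when that of experiment 2 was.

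Igtp, the third regulator and the neighbour of Irgm2, read 720, 435, 3127, 5958, 7820 and 9159 in experiment 1, and 671, 592, 2735, 5106, 5069 and 3527 in experiment 2. As with Irgm2, each later signal after 1 h was higher than the one before in experiment 1, while in experiment 2 the highest value was at 6 h. Igtp changed by 2.05 ± 0.33 at 3 h and 3.15 ± 0.33 on the log2 scale at 12 h, or 8.88-fold (limma adjusted p = 0.000135). At 3 h the limma adjusted p was 0.0133, but 0.0905 without the replicate block and 0.0641 without the intensity trend. Leaving out a 0 h or a 3 h array gave 3 h changes of 1.90 to 2.20. The change at 24 h was 3.00, and 2.39 when the 24 h array of experiment 1 was left out or 3.62 when that of experiment 2 was.

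Iigp1, the best studied effector of the immunity-related GTPases, started low. Its brighter probe set 1419043_a_at read 135, 129, 2079, 10414, 19712 and 13835 in experiment 1, and 66.7, 43.1, 400.04, 2186, 7965 and 5181 in experiment 2. Experiment 1 was the higher at all 6 times, yet both had the same shape, with a maximum at 12 h. Log2 changes were 3.06 ± 0.33 at 3 h, 5.42 ± 0.33 at 6 h and 6.81 ± 0.33 at 12 h, or 112-fold (limma adjusted p = 6.65e-07). The second probe set, 1419042_at, went with it (Pearson correlation 0.985 over 12 arrays) and changed by 7.46 ± 0.59 at 12 h. Its 0 h signals of 26.7 and 6.10 make the size depend on the added constant: the 12 h change was 8.58 with 1 added and 6.10 with 64 added.

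Ifi47, the other effector, read 616, 590, 6334, 14488, 15050 and 11539 in experiment 1, and 496, 515, 4533, 11163, 12192 and 6700.2 in experiment 2. Nearly all of its increase was in place by 6 h in both experiments. Relative to 0 h, log2 changes were 3.24 ± 0.17 at 3 h, 4.49 ± 0.17 at 6 h and 4.58 ± 0.17 at 12 h, or 23.9-fold (limma adjusted p = 2.28e-07).

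Mx1, whose intact form acts in the nucleus against influenza viruses, read 1066, 1259, 16532, 24395, 26109 and 16866 in experiment 1, and 299, 395, 7619, 13908, 17352 and 13492 in experiment 2. The 0 h arrays differed 3.56-fold between experiments, and the 24 h arrays 1.25-fold. Its log2 change was 4.27 ± 0.31 at 3 h and 5.19 ± 0.31 at 12 h, or 36.5-fold (limma adjusted p = 2.76e-06).

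Mx2, whose intact form acts in the cytoplasm, was at 6.65, 39.6, 1999.8, 3959, 4581 and 3899 in experiment 1 and at 12.0, 17.5, 983, 1767, 1948 and 1919 in experiment 2. Its 0 h signals were far below the array medians, so only the later levels are well measured. It passed the filter on mean signal (78.4) only through its later arrays. Mx2 changed by 5.82 ± 0.33 at 3 h and 6.90 ± 0.33 at 12 h (limma adjusted p = 6.65e-07), the largest of the 10 genes at 3 h by their brighter probe sets. With 1 added in place of 16 the 12 h change was 8.23, and with 64 added 5.38. Without the 0 h array of experiment 1 the change was 5.15 at 3 h and 6.23 at 12 h, and without that of experiment 2 it was 6.48 and 7.57. Transcripts of both Mx genes were thus abundant after poly(I:C), although RefSeq lists them as pseudogenes.

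**Figure D3:**
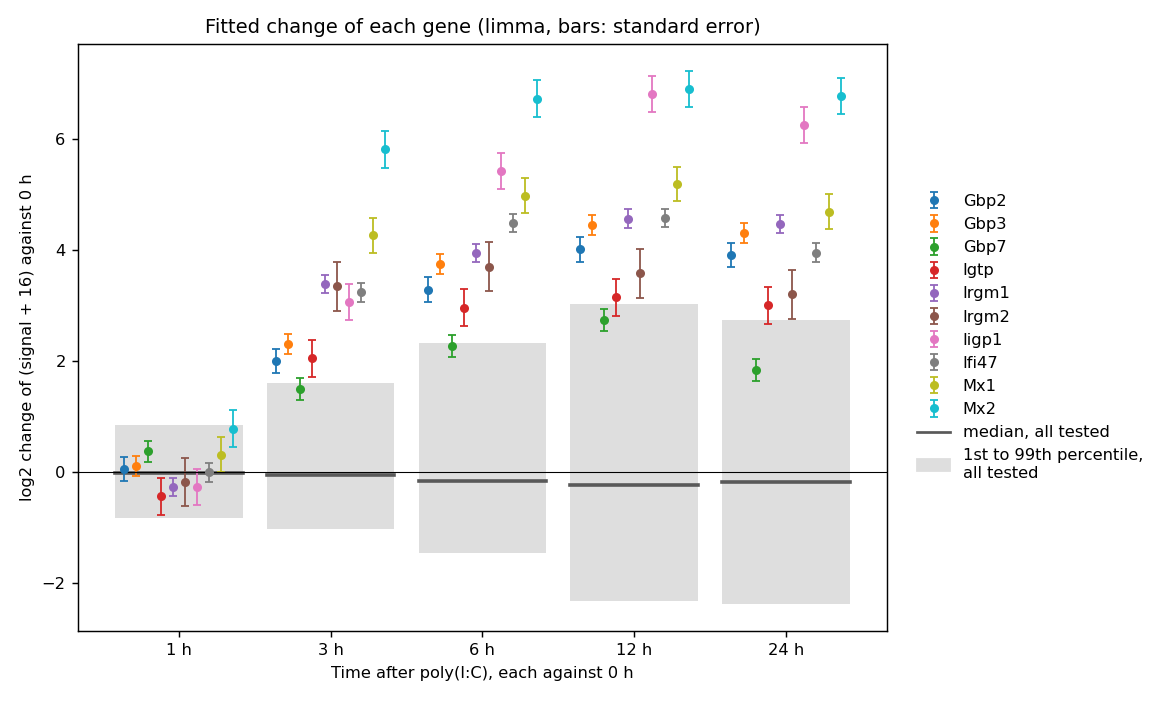
Fitted log2 change of (signal + 16) against 0 h for the brighter probe set of each gene at 1, 3, 6, 12 and 24 h, with standard errors from limma; grey boxes span the 1st to the 99th percentile of all 22519 tested probe sets and the dark line is their median. Iigp1 (6.81) and Mx2 (6.90) lie highest at 12 h, and Gbp7 (2.74) lies lowest and inside the grey box, whose upper edge is 3.02.

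Whether the genes still changed between neighbouring times was tested on the same fit. All 13 probe sets were higher at 3 h than at 1 h (0.861% of all tested), with log2 changes of 1.13 (Gbp7) to 5.04 (Mx2). This count was 8 with the 1 h array of experiment 1 left out, and then the change of the second Iigp1 probe set was 1.76 in place of 2.98. At 6 h all 13 had a higher fitted value than at 3 h and were higher in both experiments, but only 4 were called (0.528% of all tested): Gbp3 with 1.45 ± 0.18 (limma adjusted p = 0.00911), the brighter probe sets of Iigp1 with 2.36 ± 0.33 (adjusted p = 0.0134) and Gbp2 with 1.29 ± 0.22 (adjusted p = 0.0349), and Ifi47 with 1.24 ± 0.17 (adjusted p = 0.0134). The median change of all tested probe sets was -0.09 at this step, and the share of them higher in both experiments was not counted. The 6 h against 3 h count was 0 without the replicate block and also 0 when the 3 h array of experiment 2 or either 6 h array was left out. With the 3 h array of experiment 1 left out it was 2, and with either 24 h array left out 7.

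The median log2 step of the 13 was 0.91 between 3 and 6 h and 0.47 between 6 and 12 h. At 12 h against 6 h none was called higher by limma (0.608% of all tested), although 12 of 13 fitted changes were positive and 7 had an unadjusted p under 0.05. Of all 22519 tested, 1269 were higher and 2521 lower at that unadjusted threshold, and the median change was -0.08. The largest were those of Iigp1, 1.39 ± 0.33 for the brighter probe set (adjusted p = 0.0659) and 1.61 ± 0.59 for the other (adjusted p = 0.198), and Irgm2 had -0.12 ± 0.44. This count was 4 without either 24 h array.

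At 24 h against 12 h all 13 fitted changes were negative, and 10 probe sets were lower in both experiments. In the other 3 (Gbp2 1418240_at, Irgm2 and Igtp) the 24 h signal was higher than the 12 h signal in experiment 1 and lower in experiment 2. The median change of all tested probe sets was 0.03 at this step, and the share of them lower in both experiments was not counted. Only Gbp7 1434380_at was called lower, by -0.90 ± 0.19 (limma adjusted p = 0.0356; 2.25% of all tested were called lower), and none was called higher (1.87% of all tested, with 0 of the 13 higher at an unadjusted p under 0.05). The Gbp7 call was lost when any single array from 0 to 12 h was left out, and when the replicate block was dropped. Leaving out the 24 h array of experiment 1 gave 2 calls. Ifi47 had -0.62 ± 0.17 (adjusted p = 0.0708). The differences smallest in size were those of the Gbp2 probe sets, -0.10 and -0.04, with 95% intervals of -0.59 to 0.39 and -0.48 to 0.40, and that of Irgm1, -0.09, with an interval of -0.46 to 0.27.

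The pace of the increase varied among the genes, and it is given here as a description. For each gene and experiment the rise over 0 h was expressed as a percentage of that experiment's largest rise, on the linear signal. At 3 h Irgm2 had reached 72.9% in experiment 1 and 71.6% in experiment 2, and Mx1 61.8% and 42.9%. Mx2 had reached 43.6% and 50.2%, Irgm1 48.2% and 35.6%, Igtp 28.5% and 46.5%, and Ifi47 39.6% and 34.5%. For the guanylate-binding proteins the shares were 39.7% and 25.8% for Gbp7, 27.2% and 14.1% for Gbp2 and 22.7% and 15.4% for Gbp3. Iigp1 had the lowest share in both experiments, 9.93% and 4.22%. The highest and the lowest gene were therefore the same in both experiments, whereas genes in the middle changed places. A linear share weights the late values, so Iigp1 could stand lowest here while its 3 h signal was 15.4-fold and 6.00-fold its 0 h signal in experiments 1 and 2.

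Of the 13 probe sets, 10 had their highest signal at 12 h in experiment 1 and 3 at 24 h. In experiment 2, 11 had it at 12 h and 2, Irgm2 and Igtp, at 6 h. At 24 h the share of the largest rise still present ranged from 63.1% (Mx1) to 100% in experiment 1 and from 29.9% (Gbp7) to 98.5% (Mx2) in experiment 2.

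**Figure D4:**
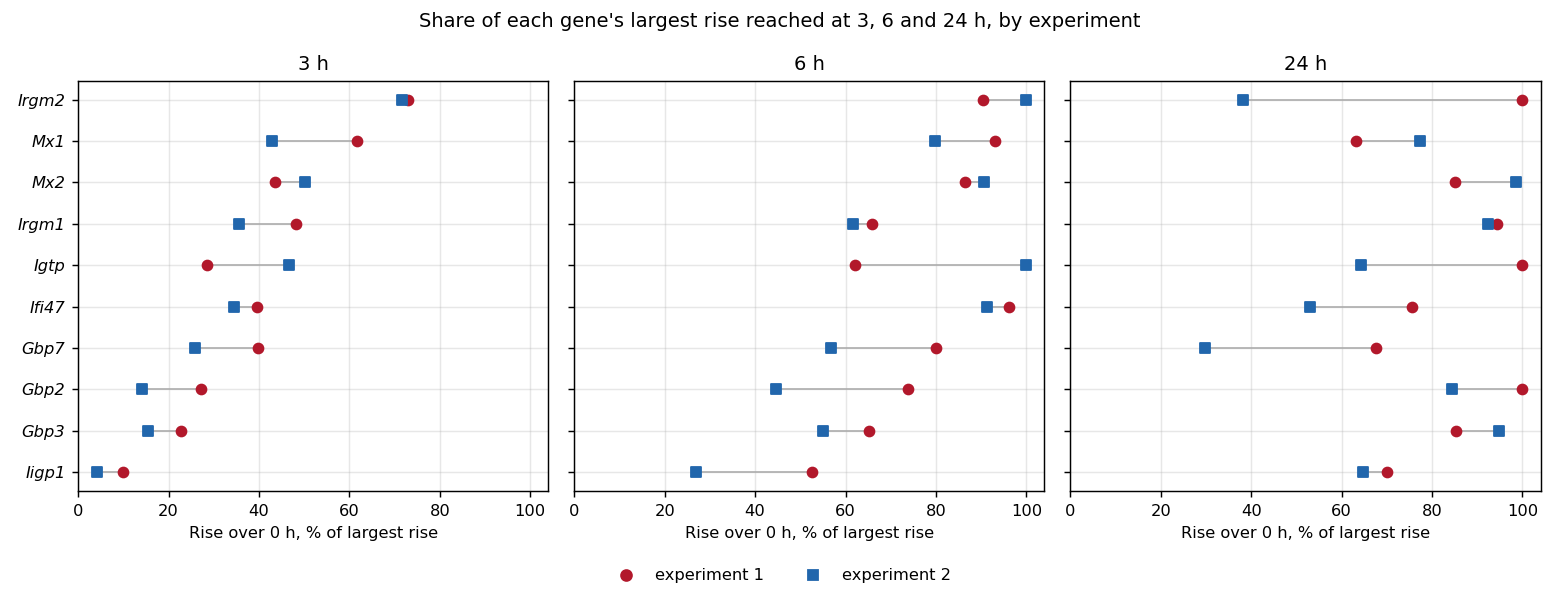
Rise over 0 h as a percentage of the largest rise of the same experiment, for the brighter probe set of each gene at 3, 6 and 24 h, in experiment 1 (circles) and experiment 2 (squares). Genes run from the highest mean share at 3 h (Irgm2, 72.2%) to the lowest (Iigp1, 7.07%), and at 24 h the experiments are far apart for Irgm2 (100% and 38.2%).

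The experiments also differed in level. Experiment 1 had the higher signal for 11 of the 13 probe sets at 0 h and for 10 at 1 h. It had the higher signal for all 13 at 3 and 6 h and for 11 at 12 and 24 h. The share of all tested probe sets with the higher signal in experiment 1 was not counted, so these counts describe the 13 only. The median ratio of experiment 1 to experiment 2 was 1.15 at 0 h and 1.31 at 1 h. It was 1.58 at 3 h, 1.45 at 6 h, 1.50 at 12 h and 2.03 at 24 h. The median over all tested probe sets was between 0.993 and 1.11 at these 6 times. For Iigp1 1419043_a_at the ratio was highest at 3 h, 5.20, and 2.47 at 12 h. Irgm2 and Igtp had ratios of 0.647 and 1.07 at 0 h and of 3.54 and 2.60 at 24 h. Mx1 had ratios of 3.56 at 0 h and 1.25 at 24 h. With 1 mouse per experiment, mouse, culture and hybridization cannot be told apart, and no test was made of these ratios.

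**Figure D5:**
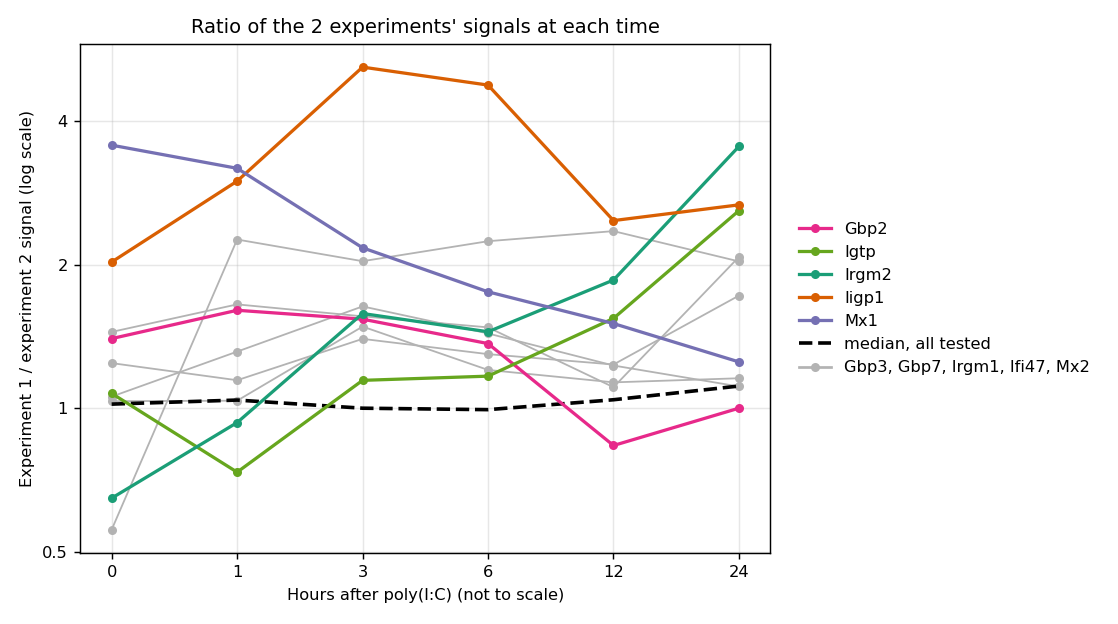
Signal of experiment 1 divided by that of experiment 2 (log axis) for the brighter probe set of each gene at 6 times (axis not to scale), with 5 genes in colour and the other 5 in grey; the dashed line is the median over all tested probe sets. Irgm2 and Igtp end high at 24 h (3.54 and 2.60), Mx1 ends at 1.25 and Gbp2 at 1.00.

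The members moved alike over the 12 arrays. The log2 signal of each gene had a Pearson correlation with the mean of the other 9 of 0.947 (Gbp7) to 0.993 (Ifi47). These correlations describe 12 arrays that come from 6 times and 2 mice, with no test. Among 10975 other genes, the 10 whose log2 signals were most like the mean standardized profile of the family were Stat2 (r = 0.996), Dtx3l (0.995), Gm4951 (0.994), Ifit1bl1 (0.993), Znfx1 (0.993), Rnf213 (0.993), Slfn8 (0.991), Parp14 (0.990), Nt5c3 (0.989) and Oasl1 (0.989). Gm4951 has the synonym Ifgga2 in RefSeq, a name of the immunity-related GTPase family. Its log2 change at 12 h was 5.67 ± 0.22 (limma adjusted p = 2.28e-07). Stat2, a subunit of the complex that binds the ISRE, changed by 3.80 ± 0.17 (adjusted p = 4.33e-07).

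Other GTPases of the same families with a single-gene probe set were Gbp2b, Gbp6, Gbp8, Irgc1 and Irgq (5 of 14 listed, a list that did not hold Gm4951). Of 10985 genes tested with 1 probe set each, 1.26% were higher at 3 h, 4.29% at 6 h, 10.7% at 12 h and 11.5% at 24 h. Their median log2 change at 12 h was -0.20. Gbp6 was the 1 gene of the 5 called at 3 h, with 2.39 and, at 12 h, 4.86 (limma adjusted p = 2.24e-06). Gbp8 was later: its signals were 265 and 111 at 3 h in experiments 1 and 2, against 96.3 and 91.0 at 0 h, and at 12 h it had changed by 4.73 (adjusted p = 8.49e-06). Irgc1 changed by 1.57 (adjusted p = 0.00525) at 12 h. Gbp2b read 358 and 148 at 12 h, against 48.5 and 40.3 at 0 h, and it passed the filter on mean signal (78.4) only through its later arrays. Irgq, a divergent relative, had -0.17 at 12 h (adjusted p = 0.718). In contrast, of 7 tested large GTPases that shape membranes or mitochondria without interferon (median 0.00), 1 was higher at 12 h and 1 lower. These were Atl3, an atlastin of the endoplasmic reticulum (0.77, adjusted p = 0.0179), and Mfn1, a mitofusin (-0.85, adjusted p = 0.00605). The share called lower among all genes was 20.6% at 12 h and 17.2% at 24 h.

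The 5 interferon ligand genes that passed the filter on mean signal had a mean 0 h signal below it and passed only through later arrays. No count, median or test is therefore given for them. Ifnb1, the interferon beta gene, read 32.6, 550.3, 522, 4588, 5289.8 and 86.1 over the 6 times in experiment 1, and 48.4, 168, 213, 1875, 3322 and 842 in experiment 2. Both experiments were highest at 12 h and much lower at 24 h. The log2 change of Ifnb1, whose size depends on the added 16, was 6.23 at 12 h and 2.40 at 24 h. All 13 GTPase probe sets were still above 0 h at 24 h. Ifna2, an interferon alpha gene, read 2395 and 857 at 6 h and 739 and 578 at 12 h, against 10.8 and 4.27 at 0 h. Ifna4, another, read 1384 and 729.8 at 6 h and 443 and 369 at 12 h, against 4.95 and 3.42 at 0 h. Of the 4 receptor chains, all well above the filter at 0 h, limma called 3 higher at 12 h, among them Ifnar2 of the interferon alpha and beta receptor (1.01, adjusted p = 0.00234), and 1 lower, Ifngr1 of the interferon gamma receptor (-0.94, adjusted p = 0.0102). Among all genes, 10.7% were higher and 20.6% lower at 12 h. Ifng, the interferon gamma gene, named, like Ifngr1, outside the rule after its values were seen, was too dim to be tested and read 20.8 and 3.02 at 12 h, against 24.6 and 4.00 at 0 h.

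Of 10 tested genes of interferon signalling and its transcription factors, 4 were higher at 3 h, 5 at 6 h, 7 at 12 h and 6 at 24 h, with 1 lower at 24 h and a median of 1.28 at 12 h. Besides Stat2, these included Irf7, which amplifies interferon alpha production, with 3.33 at 3 h and 6.43 at 12 h (limma adjusted p = 6.9e-07). Irf1, an activator of many GTPase promoters, changed by 2.63 at 3 h and 2.80 at 12 h (adjusted p = 8.81e-05), and Irf9, the DNA-binding subunit on the ISRE, by 1.65 and 1.73 (adjusted p = 0.000134 at 12 h). Of 7 feedback inhibitors of interferon signalling, 5 were higher and 1 lower at 12 h (median 1.46). Among all genes, 10.7% were higher and 20.6% lower at 12 h, and 17.2% were lower at 24 h. The single lower gene of each of these lists does not exceed that share. Usp18, which blocks the interferon receptor, had 4.96 at 3 h and 6.75 at 12 h (adjusted p = 4.09e-08), Socs1 2.69 at 12 h (adjusted p = 0.000261) and Ptpn6, a phosphatase, 1.46 (adjusted p = 0.000341). The inhibitor called lower at 12 h was Irf2bp2, a co-repressor of Irf2, with -0.81 (adjusted p = 0.0316).

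Genes that work beside the GTPases at the vacuole were mixed. The Atg8 proteins and the machinery that conjugates them, which directs these GTPases to vacuoles, had 11 genes tested. Of these, limma called 2 lower and 0 higher at 12 h, near the 20.6% lower of all genes. Their median was -0.05, with 0 higher at an unadjusted p under 0.05. At 24 h the counts were 3 higher and 0 lower, against 11.5% and 17.2% of all genes, with 0 lower also at an unadjusted p under 0.05. The 3, named after their values were seen, were Atg12 (1.01) and the Atg8 proteins Gabarapl1 (0.74) and Map1lc3b (0.50). The lower ones at 12 h were Atg5 (-0.78, limma adjusted p = 0.0173) and Atg7 (-0.83, adjusted p = 0.0152). Of 6 tested ubiquitin ligases and adaptors of coated vacuoles, 4 were higher at 12 h (median 0.93), among them Rnf213 (3.74, adjusted p = 5.05e-06), Trim21 (2.71, adjusted p = 0.000581) and Tax1bp1 (0.81, adjusted p = 0.00301). Of 8 inflammasome genes linked to guanylate-binding proteins, 7 were higher at 12 h (median 1.72), and 6 were higher and 2 lower at 24 h. Among all genes, 10.7% were higher at 12 h and 11.5% at 24 h. The 2 of 8 lower at 24 h lie near the 17.2% lower of all genes. Casp4, the mouse caspase-11 that senses cytosolic lipopolysaccharide, had 1.37 at 3 h and 3.51 at 12 h (adjusted p = 1.46e-05). Il18 had 2.20 (adjusted p = 0.000174), Casp1 1.85 (adjusted p = 0.000187) and Gsdmd, the pore former of pyroptosis, 1.60 (adjusted p = 0.000223) at 12 h. The lower ones at 24 h, named after their values were seen, were Il1b, the interleukin 1 beta gene (-0.99, adjusted p = 0.0473, after 1.50 at 12 h), and Nlrp3, an inflammasome sensor (-0.73, adjusted p = 0.0379).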

How the data were processed

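Transcripts of C57BL/6 bone marrow DC were measured on 12 Affymetrix whole-genome mouse arrays (6 times, 2 experiments). The deposited values are MAS5.0 signal intensities that the authors' core facility scaled to a trimmed mean of 500 per array (highest and lowest 2% left out), on a linear scale with no detection calls used here. The table holds 45101 probe sets. After 64 controls were removed, 34945 had 1 gene in the platform annotation, 932 several and 9160 none, and genes were named from the first kind only. No count or depth underlies an array signal, so the number of arrays limits the precision.

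Log2(signal + 16) was modelled in R 4.3.3 by limma 3.58.1; the terms were time and experiment, with an intensity trend in the empirical Bayes step. The 22519 probe sets with a mean signal at or above the median (78.4) were tested, all 13 member probe sets among them, at a Benjamini-Hochberg adjusted p of 0.05. The block comes from the study's methods, by which an experiment is 1 mouse; deviations from the time means correlated within an experiment at r = 0.256 to 0.660 over 15 pairs of times. Calculations were checked on simulated data. Python 3.11.15, numpy 2.4.6, pandas 2.3.3, scipy 1.17.1 and matplotlib 3.10.9 served for the tables and plots.

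Members and lists were chosen with earlier results of these data known. Named genes are the members (the probe set with the highest mean first), up to 4 genes per list with the smallest p at 12 h, every related GTPase, and the 10 non-member genes most like the family. For lists, 1 probe set per gene was used. Promoter sequences are from RefSeq (GRCm38.p6). Alternatives were other pseudocounts (1 and 64), filters and scalings, no block, no trend, only the 4 arrays of a comparison, each array left out, and, added after the data were seen, both 1 h arrays left out, because the study excluded the 1 h arrays from its own filter.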

Additional observations from a re-analysis of the deposited data

Results flagged for a closer look

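The results below are those where neighbouring times differed by limma's test of the step itself, given as log2 changes of (signal + 16). Between 1 and 3 h all 13 probe sets were higher at 3 h. The change was 1.94 for Gbp2 1418240_at and 1.75 for 1435906_x_at, 2.19 for Gbp3, and 1.13 for Gbp7 1434380_at and 1.33 for 1425156_at. It was 3.65 for Irgm1, 3.53 for Irgm2, 2.49 for Igtp and 3.24 for Ifi47. It was 3.33 for Iigp1 1419043_a_at and 2.98 for 1419042_at, 3.96 for Mx1 and 5.04 for Mx2. The step of 1419042_at lay just within the threshold (limma adjusted p = 0.0495) and started from dim 1 h signals of 27.3 and 50.4. With no filter on low signals its limma adjusted p was 0.0519, and with quantile normalization 0.0696. Between 3 and 6 h the step was past the threshold for Gbp2 1418240_at (1.29), Gbp3 (1.45), Iigp1 1419043_a_at (2.36) and Ifi47 (1.24). Between 12 and 24 h it was past the threshold for Gbp7 1434380_at (-0.90).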

How the results depend on the processing

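All 52 log2 changes against 0 h at 3, 6, 12 and 24 h kept their sign in 1144 refits, and 1125 kept their side of the threshold; the other 19 were all at 3 h. The 18 called steps kept their sign in 383 refits and their side in 304. For probe sets higher at 3 h than at 0 h, no replicate block gave 8 of the 13, and leaving out each array in turn gave 8 to 13. Leaving out an array gave 8 to 13 for 3 h against 1 h, 0 to 7 for 6 h higher than 3 h, 0 to 4 for 12 h higher than 6 h and 0 to 2 for 24 h lower than 12 h, and it moved no other count. At 3 h against 1 h, where 13 were called, 9 were called with no replicate block, 10 with no intensity trend and 11 with arrays centred on the median. Quantile normalization, no filter on low signals and 64 added each gave 12. At 6 h against 3 h, where 4 were called, 0 were called with no replicate block, 0 with no intensity trend and 13 from only the 4 arrays of the comparison. At 12 h against 6 h, where 0 were called, those 4 arrays alone gave 5. The single probe set lower at 24 h than at 12 h (Gbp7 1434380_at) gave 0 calls with no filter on low signals, with arrays centred on the median, with no replicate block, with no intensity trend, from only the 4 arrays, and with both 1 h arrays left out. Centring on the median put the median change of all tested probe sets at 24 h at -0.04 in place of -0.19. The replicate block changed no call against 0 h at 6, 12 or 24 h. The causes were not tested. With 2 arrays per time and no array of untreated cells after 0 h, small steps between late times are beyond what these data can separate.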
